A study of Mus musculus with 23 samples.

Results

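Dazl, Ddx4, Mael, Tdrkh, Stk31, Sycp3, Stag3, Hormad1, Taf7l and Slc25a31 are genes of germ cells, and their RNA was followed in mouse embryonic stem cells (ESCs) in which the targeting of a polycomb complex was disrupted. The 10 germline genes were listed by name, a choice made with earlier results of these samples known, and each was found as 1 row among 23369 gene names in the RNA-seq tables. The cells were Kdm2b fl/fl ESCs, in which both Kdm2b alleles carry loxP sites around the exon for most of the ZF-CxxC domain, and which also express a tamoxifen-inducible Cre recombinase. Per the study's methods the floxed allele was made in MS12 ESCs, and the ESC lines were then derived by crossing mice that carry it. PolyA+ RNA from 3 replicates labelled untreated was compared with RNA from 3 replicates cultured with 4-hydroxytamoxifen for 72 hr, which removes the exon and leaves KDM2B protein that cannot bind nonmethylated CpG DNA. The labels give the dose as 800 nM and the series text as 800 µM.

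All 6 samples carried the same floxed alleles, the same Cre and passage range (p10 to p20), and no vehicle or Cre-only control was described, so the effects of the drug, of Cre and of the missing domain cannot be told apart. Groups were set by the sample labels. File names point the other way for each of the 6 samples, and if those were right all fold changes given here would switch sign with the same magnitude. The cells were grown on fibroblast feeders and then settled overnight without them, and ESC markers were high in all 6 samples, with a summed level over 10 markers of 2970 to 4178 FPKM in the untreated samples and 3358 to 5701 in the tamoxifen samples. Kdm2b itself, which is measured over the whole gene and not over the deleted exon, was at 27.0, 21.5 and 27.7 FPKM in untreated replicates 1, 2 and 3 and at 19.9, 21.9 and 25.0 in tamoxifen replicates 1, 2 and 3, and therefore does not check the deletion.

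Genes of this kind serve sperm and egg formation. In the embryo and in somatic tissues they are kept low, in large part by DNA methylation of CpG-rich promoters, by H3K9 methylation, and by a variant PRC1 complex, PRC1.6, that holds PCGF6. PRC1.6 contains MGA and MAX, which bind the E-box CACGTG, and E2F6, which binds sites with the core GCGGGA, whereas KDM2B belongs to the variant complex with PCGF1. Low transcripts of germline genes are commonly detected in ESCs.

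The promoters of the 10 genes were examined first, because KDM2B reads nonmethylated CpG and PRC1.6 reads the E-box and the E2F core. RefSeq windows from 250 bases before to 50 after the start (GRCm38.p6 table) were found for 10 of 10 genes, Hormad1 and Stk31 having 2 starts each. All 12 windows matched the mm9 (NCBIM37) genome exactly once. The 250 bases before the start are shown 5′ to 3′ on the strand of the gene for 4 of them, with mm9 positions. Dazl and Hormad1 are shown since they had the highest fold changes after tamoxifen, Ddx4 since it was the most abundant of the 10 in untreated cells, and Taf7l since its window was the only one that was not CpG-rich by the definition given below. Capitals mark the E-box CACGTG, which reads the same on both strands, and the E2F core GCGGGA or its reverse complement, and no matches overlapped.
Dazl, chr17:50432946-50433195, minus strand: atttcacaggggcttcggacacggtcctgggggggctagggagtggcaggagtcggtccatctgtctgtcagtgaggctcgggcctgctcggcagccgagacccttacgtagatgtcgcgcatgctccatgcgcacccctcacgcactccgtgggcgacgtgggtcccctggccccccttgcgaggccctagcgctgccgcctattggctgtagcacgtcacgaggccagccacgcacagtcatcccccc
Hormad1, chr3:95363349-95363598, plus strand: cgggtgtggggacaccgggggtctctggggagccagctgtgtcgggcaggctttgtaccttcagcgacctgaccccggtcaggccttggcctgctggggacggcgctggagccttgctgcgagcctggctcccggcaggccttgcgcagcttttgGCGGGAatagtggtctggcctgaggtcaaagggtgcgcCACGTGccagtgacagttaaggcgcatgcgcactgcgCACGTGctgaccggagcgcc
Ddx4, chr13:113442519-113442768, minus strand: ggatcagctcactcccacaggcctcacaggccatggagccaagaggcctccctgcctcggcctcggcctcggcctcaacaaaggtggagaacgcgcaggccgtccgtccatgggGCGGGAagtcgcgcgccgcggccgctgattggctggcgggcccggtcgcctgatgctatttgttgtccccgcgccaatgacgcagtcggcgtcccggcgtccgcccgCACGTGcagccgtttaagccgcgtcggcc
Taf7l, chrX:131011030-131011279, minus strand: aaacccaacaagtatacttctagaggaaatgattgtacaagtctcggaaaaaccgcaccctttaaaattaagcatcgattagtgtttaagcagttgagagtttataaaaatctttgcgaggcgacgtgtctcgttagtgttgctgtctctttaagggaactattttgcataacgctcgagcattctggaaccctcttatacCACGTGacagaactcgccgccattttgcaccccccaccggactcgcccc

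The Dazl sequence holds neither motif, Hormad1 holds 1 E2F core and 2 E-boxes, Ddx4 holds 1 of each, and Taf7l holds 1 E-box. Over the full windows, CACGTG was present in 8 of the 10 genes (83.3% of the 12 windows), against 7.15% of all 32851 mouse promoters in the table and 11.5% of the 9950 that are CpG-rich (observed over expected CpG of at least 0.6 and GC content of at least 55%). GCGGGA was present in 6 of 10 genes (58.3% of the 12 windows), against 20.0% of all promoters and 47.7% of the CpG-rich ones, and each of the 6 genes also held an E-box. Dazl and Tdrkh held neither, Taf7l and Stk31 held an E-box only, and Hormad1 and Sycp3 held 2 E-boxes each. Windows with both motifs made up 58.3% of the 12, against 1.99% of all promoters and 5.4% of the CpG-rich ones. The 2 windows of Hormad1 overlap and hold the same matches, as do those of Stk31. The shares over the 12 windows therefore count these matches more than once. Of 60 windows of other germline genes described below, 25% held an E-box, 28.3% an E2F core and 6.67% both. These are matches of letters in one window per start, and no binding was measured.

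The 12 windows were also dense in CpG. Between 15 and 38 CpG dinucleotides were found per window, with a median of 24.5, against a median of 7 over all promoters. In all, 11 of 12 windows met the definition of CpG-rich (91.7%, against 30.3% of all promoters and 43.3% of the windows of other germline genes), the exception being Taf7l on the X chromosome, with a GC content of 47% and an observed over expected CpG of 1.03. The most CpG-dense window was that of Ddx4, with 38 CpG and a GC content of 72%.

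**Figure D1:**
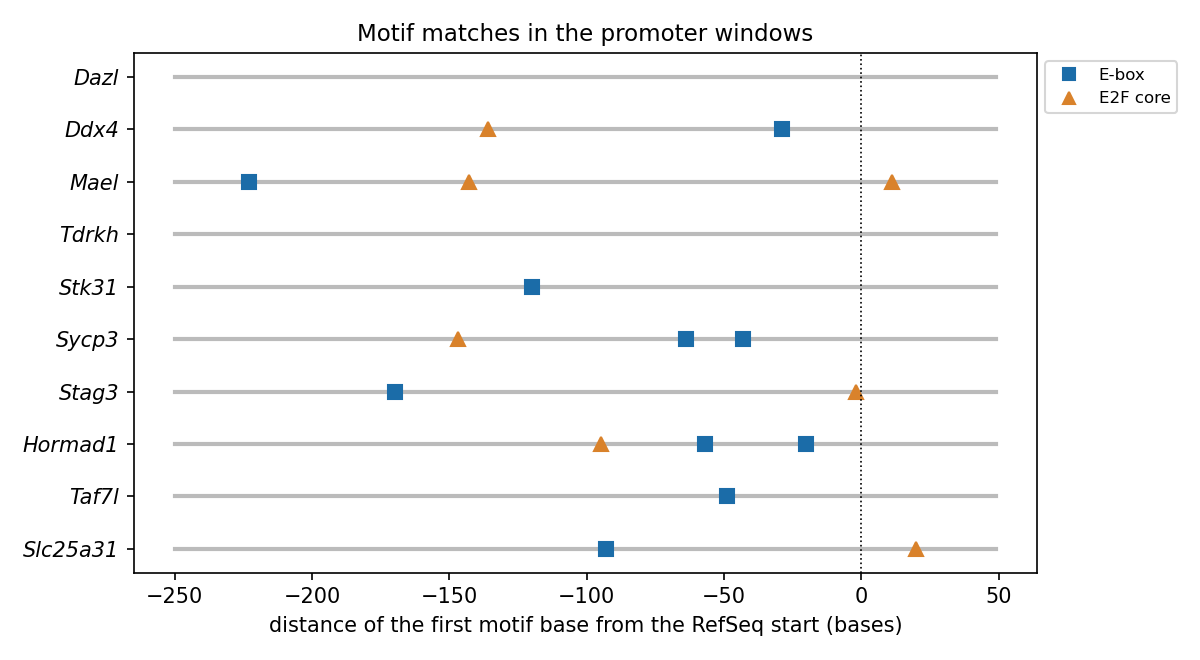
Each grey line is the promoter window of one gene, from 250 bases before to 50 after the RefSeq start (dotted line), and the horizontal axis gives the distance in bases of the first motif base from that start. Squares mark E-boxes and triangles E2F cores. One of 2 windows is drawn for Hormad1 and Stk31. Dazl and Tdrkh have no match, and the E-boxes of the other 8 genes begin between positions −223 and −20.

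The 10 genes were transcribed at low to moderate levels before treatment, and although such genes are often called silenced in ESCs, these values do not show it. Levels are given in FPKM, in which the fragments of a gene are divided by its transcript length and by the size of the library. In the untreated samples 9 of 10 genes had a mean of at least 1 FPKM, and their means ranged from the 46.2 percentile of all genes for Slc25a31 to the 71.4 percentile for Ddx4. The order from the highest level was Ddx4 at 9.11 ± 2.80, Sycp3 at 6.42 ± 2.34, Mael at 3.89 ± 0.82, Stag3 at 3.78 ± 1.16, Hormad1 at 2.45 ± 0.56, Stk31 at 2.35 ± 1.02, Dazl at 2.24 ± 0.46, Tdrkh at 1.73 ± 0.05, Taf7l at 1.73 ± 0.47 and Slc25a31 at 0.672 ± 0.273 FPKM (SD, n = 3 each). Neighbours in this order overlapped between samples, except that all 3 values of Taf7l lay above those of Slc25a31. Because these are bulk samples, few cells with much of an RNA and many cells with little cannot be told apart. Spermatid markers were near absent, with a sum over 7 markers of at most 0.346 FPKM in any sample and 3 markers at 0 in all 6.

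The comparison with tamoxifen asked whether the germline genes move when KDM2B loses its DNA-binding domain. Of the 10 genes, 2 rose after tamoxifen, Dazl and Hormad1, and both calls were obtained only when the replicate number was included as a block. Without the block no member passed (0 higher and 0 lower by limma at an adjusted p of 0.05), as was the case for nearly all genes, of which 3 of 12997 were higher (0.0231%) and 1 was lower (0.00769%). At an unadjusted p under 0.05 without the block, 2 members were higher, again Dazl and Hormad1, and none was lower, beside 241 genes higher (1.85%) and 382 lower (2.94%). Untreated and tamoxifen samples that share a replicate number also shared deviations from the rest of their group, and with the block 563 genes were higher (4.33%) and 787 lower (6.06%). Under the block this split was 604 to 595 after quantile normalization and 310 to 919 after scaling to TPM without loci under 300 bp, with Dazl and Hormad1 higher in both. The 2 of 10 members that passed therefore stand beside 4.33% of all genes passing in that direction, and 8 of 10 did not pass.

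**Figure D2:**
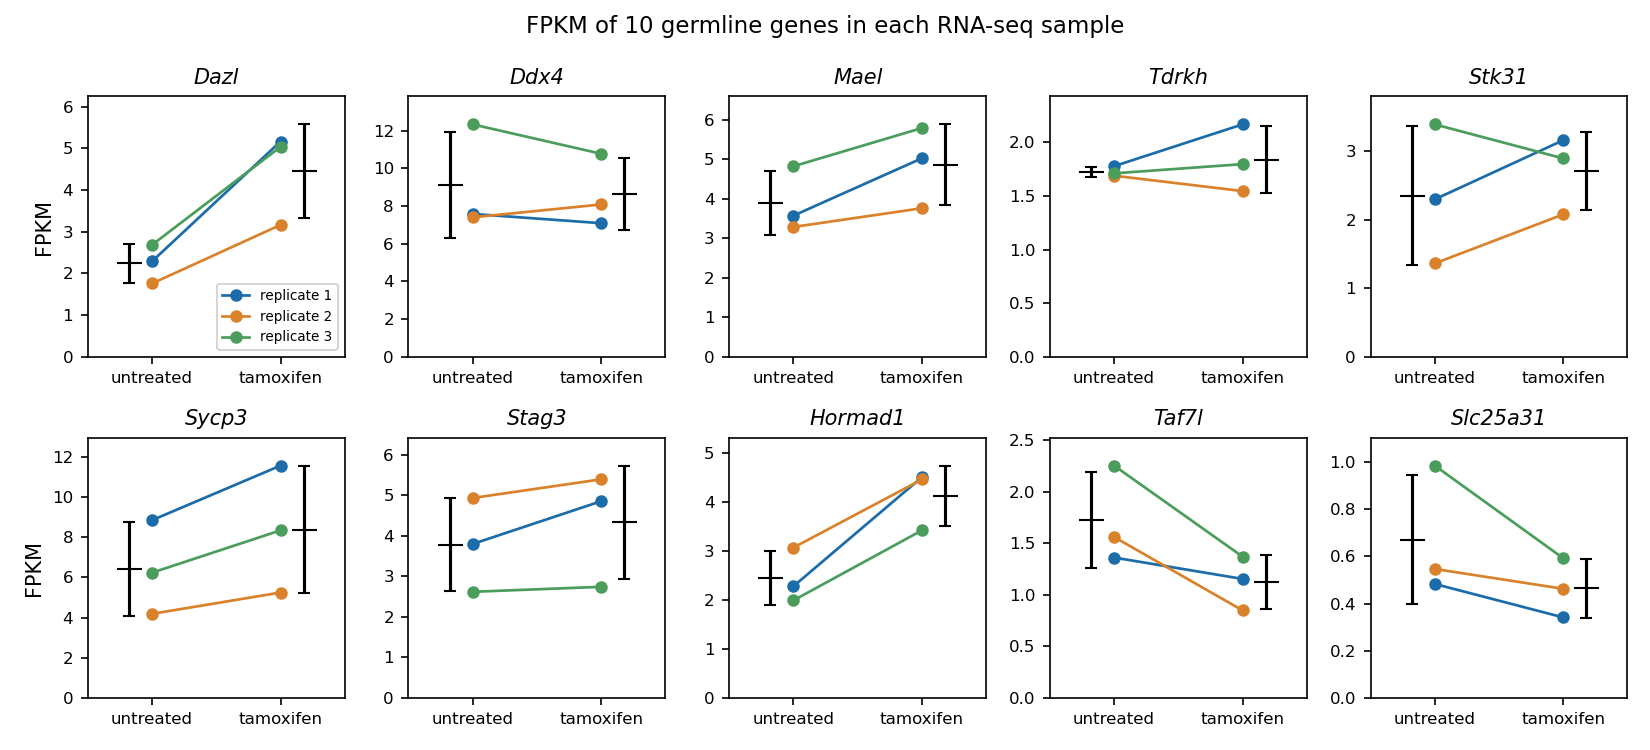
FPKM of each of the 10 genes (vertical axes from 0, a scale per gene) in the untreated and tamoxifen samples. Coloured points joined by lines are samples of the same replicate number, and the black bars beside them are the mean and SD of 3 samples. For Dazl and Hormad1 all 3 tamoxifen samples lie above all 3 untreated samples, and for the other 8 genes the groups overlap.

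Among the RNA-binding and germ granule proteins, Dazl rose and Ddx4 did not. Dazl encodes an RNA-binding protein that controls the translation of germ cell mRNAs, and its mm9 locus is chromosome 17, 50418718 to 50432945, minus strand. Its level was 2.29, 1.76 and 2.68 FPKM in untreated replicates 1, 2 and 3 and 5.16, 3.16 and 5.03 FPKM in tamoxifen replicates 1, 2 and 3. Every tamoxifen sample was above every untreated sample, although replicate 2 was the lowest of both groups. The deposited confidence intervals of the closest samples overlapped, at 2.24 to 3.14 FPKM in untreated replicate 3 and 2.70 to 3.62 in tamoxifen replicate 2. Within replicate numbers Dazl was 2.26, 1.80 and 1.88 times higher after tamoxifen. The log2 fold change was 0.95 (1.93-fold, 95% interval 1.54 to 2.42 with the block), with a standard error of 0.30 and a limma adjusted p of 0.669 without the block, and 0.14 and 0.0105 with it. The call with the block was lost when replicate 2 was left out (limma adjusted p = 0.0845, log2 fold change 1.01).

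Ddx4, the mouse Vasa homologue, is an RNA helicase of the germ granule (chromosome 13, 113388541 to 113442518, minus strand). It had 7.58, 7.40 and 12.3 FPKM in untreated replicates 1, 2 and 3 and 7.09, 8.09 and 10.8 FPKM in tamoxifen replicates 1, 2 and 3. Replicate 3 was the highest in both groups, and the groups overlapped throughout. Ddx4 had a log2 fold change of −0.05, and the block left a 95% interval of 0.80- to 1.16-fold (limma adjusted p = 0.776). The sign of this value changed with the scaling, to 0.05 in TPM and 0.01 after quantile normalization.

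Mael, which acts in piRNA-guided silencing of transposons, was higher after tamoxifen in 3 of 3 replicate numbers without passing the test. Its level was 3.57, 3.28 and 4.82 FPKM in untreated replicates 1, 2 and 3 and 5.02, 3.76 and 5.78 FPKM in tamoxifen replicates 1, 2 and 3 (chromosome 1, 168131516 to 168168875, minus strand). The lowest tamoxifen sample lay between the untreated ones, so that the groups overlapped. On the log2 scale the difference was 0.31, or 1.24-fold with an interval of 1.01 to 1.52 with the block (limma adjusted p = 0.155).

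Tdrkh and Stk31 both encode Tudor domain proteins, Tdrkh a mitochondrial partner of PIWI proteins in piRNA maturation and Stk31 a testis protein with a kinase-like domain. Tdrkh had 1.78, 1.69 and 1.71 FPKM in untreated replicates 1, 2 and 3 and 2.17, 1.55 and 1.80 FPKM in tamoxifen replicates 1, 2 and 3 (chromosome 3, 94217240 to 94235421, plus strand). Its untreated samples were the closest to each other of all members, the highest being 1.05 times the lowest. For Tdrkh the log2 fold change was 0.07 (interval 0.80- to 1.38-fold and limma adjusted p = 0.796 with the block). Stk31 had 2.30, 1.36 and 3.39 FPKM in untreated replicates 1, 2 and 3 and 3.16, 2.08 and 2.89 FPKM in tamoxifen replicates 1, 2 and 3 (chromosome 6, 49345603 to 49419501, plus strand). It was higher in replicates 1 and 2 and lower in replicate 3, and its untreated samples were the most spread of all members, 2.49-fold from lowest to highest. For Stk31 the log2 fold change was 0.27 (interval 0.89- to 1.63-fold and limma adjusted p = 0.376 with the block).

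Of the 3 members that act on meiotic chromosomes, Hormad1 rose, and Sycp3 and Stag3 were higher in 3 of 3 replicate numbers but did not pass. Hormad1 encodes a HORMA domain protein of the unsynapsed chromosome axis, and its locus is chromosome 3, 95363599 to 95391593, plus strand. Its level was 2.28, 3.07 and 1.99 FPKM in untreated replicates 1, 2 and 3 and 4.51, 4.47 and 3.43 FPKM in tamoxifen replicates 1, 2 and 3. The groups did not overlap, but the deposited confidence intervals of the closest samples did, at 2.25 to 3.65 FPKM in untreated replicate 2 and 2.41 to 4.30 in tamoxifen replicate 3. Within replicate numbers Hormad1 was 1.98, 1.45 and 1.72 times higher after tamoxifen. The log2 fold change was 0.74 (1.67-fold, 95% interval 1.33 to 2.12 with the block), with a standard error of 0.27 and a limma adjusted p of 0.825 without the block, and 0.15 and 0.0222 with it. The call was lost when replicate 2 or replicate 3 was left out (limma adjusted p = 0.117 and 0.0616), and also without the filter on low genes (0.0697).

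Sycp3 is a component of the lateral element of the synaptonemal complex (chromosome 10, 87922332 to 87935981, plus strand). It had 8.84, 4.18 and 6.23 FPKM in untreated replicates 1, 2 and 3 and 11.6, 5.24 and 8.34 FPKM in tamoxifen replicates 1, 2 and 3. Replicate 1 was the highest and replicate 2 the lowest in both groups, and within replicate numbers the ratio varied little, at 1.31, 1.25 and 1.34. Sycp3 had a log2 fold change of 0.37 (interval 1.09- to 1.54-fold with the block), with a limma adjusted p of 0.0703 with the block and 0.0434 when quantile normalization was added to it. The Sycp3 locus is the only one of the 10 that overlaps another gene in the tables, Chpt1, which had 7.11 ± 0.72 FPKM in untreated and 6.91 ± 0.34 in tamoxifen samples (SD, n = 3 each) and did not pass (limma adjusted p = 0.866 with the block).

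Stag3, the meiosis-specific cohesin subunit, had 3.79, 4.93 and 2.62 FPKM in untreated replicates 1, 2 and 3 and 4.85, 5.39 and 2.74 FPKM in tamoxifen replicates 1, 2 and 3 (chromosome 5, 138721737 to 138753621, plus strand). Here replicate 2 was the highest and replicate 3 the lowest in both groups. Stag3 had a log2 fold change of 0.18 (interval 0.92- to 1.40-fold and limma adjusted p = 0.389 with the block).

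Taf7l and Slc25a31, germ cell versions of a TFIID subunit and of the mitochondrial ADP/ATP carrier, were lower after tamoxifen in 3 of 3 replicate numbers. Taf7l had 1.36, 1.56 and 2.25 FPKM in untreated replicates 1, 2 and 3 and 1.15, 0.849 and 1.37 FPKM in tamoxifen replicates 1, 2 and 3 (chromosome X, 130994655 to 131011029, minus strand). Its groups overlapped by the highest tamoxifen and the lowest untreated sample. The log2 fold change of Taf7l was −0.57 (interval 0.49- to 0.92-fold with the block), and its limma adjusted p with the block was 0.103 in all replicates and 0.034 when replicate 1 was left out. Slc25a31 had 0.483, 0.547 and 0.985 FPKM in untreated replicates 1, 2 and 3 and 0.342, 0.463 and 0.593 FPKM in tamoxifen replicates 1, 2 and 3 (chromosome 3, 40512793 to 40530016, plus strand). It was the lowest of the members in every sample, and its groups overlapped. The log2 fold change of Slc25a31 was −0.42 (interval 0.50- to 1.11-fold and limma adjusted p = 0.29 with the block).

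**Figure D3:**
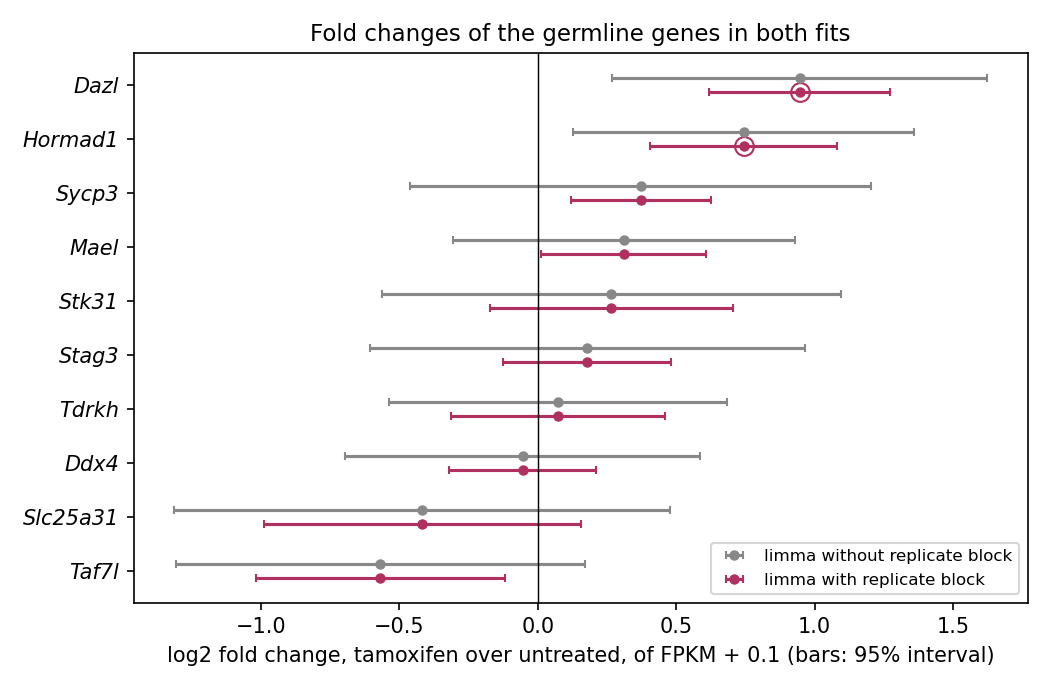
Log2 fold change (tamoxifen over untreated, of FPKM + 0.1, horizontal axis) of each of the 10 genes, with 95% intervals from limma without (grey) and with (red) the replicate block. Rings mark an adjusted p under 0.05, reached by Dazl and Hormad1 with the block. Values run from −0.57 for Taf7l to 0.95 for Dazl.

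The members did not move as one group. In all, 7 had a positive and 3 a negative log2 fold change, with a median of 0.22, against −0.02 over all 12997 genes. Members higher in 3 of 3 replicate numbers were Dazl, Mael, Sycp3, Stag3 and Hormad1, 5 of 10 beside 24.8% of all genes. Members lower in 3 of 3 were Taf7l and Slc25a31, 2 of 10 beside 28.2% of all genes. The 3 tamoxifen samples lay above the 3 untreated ones for 2 members, beside 3.09% of all genes, and below them for 0 members, beside 5.4%.

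Somatic relatives of 4 members showed the levels that the widely used versions of these proteins have in the same cells, and none of 6 passed with or without the block. For the ADP/ATP carriers, Slc25a4 was at 271 ± 60 and 299.7 ± 58.4 FPKM and Slc25a5 at 318 ± 80 and 408 ± 69 in untreated and tamoxifen samples (SD, n = 3 each), against under 1 FPKM for Slc25a31. Taf7, the ubiquitous counterpart of Taf7l, was at 30.5 ± 7.6 and 34.1 ± 7.0 FPKM. The somatic cohesin subunits were at 16.6 ± 3.8 and 13.6 ± 4.5 FPKM for Stag1 and at 21.8 ± 5.9 and 19.9 ± 9.4 for Stag2. The helicase Ddx3x was at 207 ± 58 and 192 ± 81. Their median log2 fold change was −0.01.

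Other germline genes were taken from 3 lists with 59 genes, of which 35 passed the filter on low values. These lists, like the members, were chosen with earlier results of these samples known. With the block 6 of the 35 rose, 0 fell and 29 did not pass, beside 4.33% of all genes passing higher and 6.06% lower. Without it 0 passed in either direction. At an unadjusted p under 0.05 without the block, 5 were higher and 0 lower, beside 1.85% and 2.94% of all genes. The median log2 fold change of the 35 was 0.14. All 3 tamoxifen samples were above the untreated ones for 5 of the 35, beside 3.09% of all genes, and below them for 1, beside 5.4%. The genes that rose came from all 3 lists, 2 from each.

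In the list of piRNA and germ granule genes, 14 of 20 were tested, and Tdrd12 and Pld6 rose with the block. Tdrd12, a Tudor domain helicase of the piRNA pathway, had 25.2, 13.8 and 19.6 FPKM in untreated replicates 1, 2 and 3 and 64.9, 39.8 and 47.4 FPKM in tamoxifen replicates 1, 2 and 3. Every tamoxifen sample exceeded every untreated one, by 2.61-fold on average (interval 2.24 to 3.05, limma adjusted p = 0.0018 with the block and 0.39 without), and the call held in 7 of 7 fits with the block. Pld6, a mitochondrial nuclease of piRNA biogenesis, had 4.73 ± 1.41 and 6.70 ± 1.55 FPKM (SD, n = 3 each, limma adjusted p = 0.0382 with the block), a call that held in 3 of 7 fits with the block and was lost without replicate 2 (0.172), without replicate 3 (0.157), without the filter (0.0872) and in TPM without loci under 300 bp (0.081). The most abundant gene of the list, Tex19.1, which protects the germline from retrotransposons, was at 49.4 ± 4.8 and 53.2 ± 8.0 FPKM, and Rnf17, a Tudor protein of the testis, at 8.74 ± 3.23 and 9.11 ± 3.41 FPKM, and neither passed.

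In the list of meiotic chromosome genes, 13 of 23 were tested, and Hormad2 and Smc1b rose with the block. Hormad2, the close relative of Hormad1 on the unsynapsed axis, had 1.29, 1.39 and 0.975 FPKM in untreated replicates 1, 2 and 3 and 4.48, 4.09 and 5.20 FPKM in tamoxifen replicates 1, 2 and 3. The groups were far apart, and the log2 fold change of 1.84 was the highest of all germline genes tested (3.57-fold, interval 2.64 to 4.84, limma adjusted p = 0.00362 with the block and 0.155 without). It also passed in 7 of 7 fits with the block. Smc1b, a cohesin subunit of meiosis like Stag3, had 0.971, 0.614 and 0.589 FPKM in untreated replicates 1, 2 and 3 and 3.58, 1.25 and 1.23 FPKM in tamoxifen replicates 1, 2 and 3 (limma adjusted p = 0.0208 with the block), and replicate 1 was the highest in both groups. That call was lost without replicate 2 (0.113) and without the filter on low genes (0.0692). Syce2, Trip13 and Rec8, the most abundant genes of the list, had log2 fold changes of 0.20, 0.08 and 0.06 and did not pass.

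In the list of germline transcription factors and testis enzymes, 8 of 16 were tested, and Sohlh2 and Tuba3a rose with the block. Sohlh2, a helix-loop-helix factor of early germ cell differentiation, had 2.75, 1.41 and 1.91 FPKM in untreated replicates 1, 2 and 3 and 6.51, 3.65 and 4.21 FPKM in tamoxifen replicates 1, 2 and 3 (2.31-fold, limma adjusted p = 0.00438 with the block). Tuba3a, a testis alpha-tubulin, had 5.38 ± 3.17 and 11.5 ± 6.8 FPKM (SD, n = 3 each, limma adjusted p = 0.00432 with the block). Its near-identical copy Tuba3b had 0.623 ± 0.241 and 1.42 ± 0.64 FPKM and did not pass (0.057), and the split of reads between both copies is uncertain. Leaving out replicate 2 ended the calls of Sohlh2 (0.0628) and Tuba3a (0.0603). Tbpl1 and Usp26, also among the most abundant of the list, had log2 fold changes of 0.18 and −0.33 and did not pass.

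**Figure D4:**
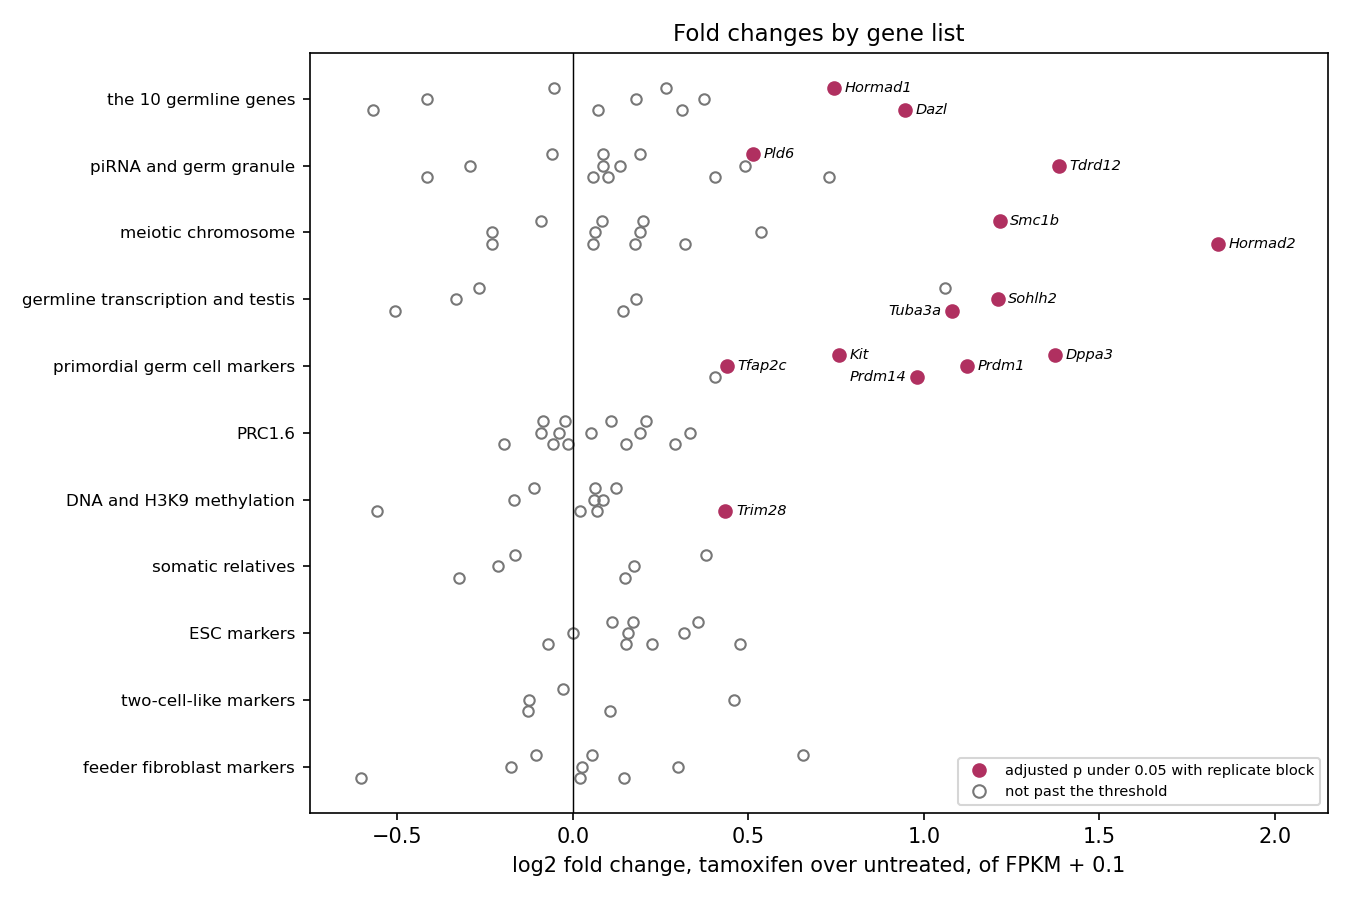
Log2 fold change (tamoxifen over untreated, of FPKM + 0.1, horizontal axis) of every tested gene of 11 lists, 1 point per gene, with points of a list spread vertically for legibility. Filled and named points have an adjusted p under 0.05 with the replicate block: 2 of the 10 germline genes, 6 of 35 other germline genes, 5 of 6 primordial germ cell markers and Trim28.

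Of 6 markers of primordial germ cells, the earliest cells of the germline, 5 rose with the block, beside 4.33% of all genes, and 0 passed without it (limma adjusted p from 0.4 to 0.999). Like the other lists, this one was chosen with earlier results of these samples known. The median log2 fold change over the list was 0.87. Dppa3, a maternal and germ cell factor, had 45.9, 21.6 and 21.8 FPKM in untreated replicates 1, 2 and 3 and 132, 53.6 and 53.4 FPKM in tamoxifen replicates 1, 2 and 3. The groups did not overlap and replicate 1 was the highest in both (2.59-fold, limma adjusted p = 0.0018 with the block, held in 7 of 7 fits with it). The transcription factors of germ cell specification rose as well, Prdm1 from 1.57 ± 0.27 to 3.52 ± 0.43 FPKM, Prdm14 from 2.58 ± 0.32 to 5.21 ± 0.85 and Tfap2c 1.36-fold from 41.7 ± 16.0 (SD, n = 3 each, limma adjusted p = 0.0131, 0.0105 and 0.0412 with the block). Kit, the receptor for stem cell factor, rose from 15.2 ± 5.9 to 25.2 ± 7.7 FPKM (limma adjusted p = 0.0166 with the block). Without replicate 2 the calls of Prdm1, Prdm14, Tfap2c and Kit were lost (limma adjusted p = 0.122, 0.108, 0.232 and 0.113), and without the filter on low genes those of Prdm1 and Kit were lost too (0.0533 and 0.057). Tfap2c passed in 2 of 7 fits with the block, and its call was also lost without replicate 3 (0.112), without the filter (0.0845), after quantile normalization (0.082) and in TPM without loci under 300 bp (0.0949). Nanos3, which is in the piRNA list too, had 1.98 ± 0.26 and 3.06 ± 2.02 FPKM and did not pass. Dppa3, Prdm14 and Tfap2c are also known to be expressed in ESCs. The summed level of the 6 markers was 72.7 to 127 FPKM in the untreated and 132 to 237 in the tamoxifen samples, with none at 0, and its part in the results for Dazl and Hormad1 was not tested.

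No tested marker of feeder fibroblasts, 2-cell-like cells or ESCs passed in the main comparison or with the block added to it. Of the feeder fibroblast markers, 9 of 10 were tested, with log2 fold changes from −0.60 to 0.65, and their sum was 53.1 to 145 FPKM in untreated and 87.3 to 116 in tamoxifen samples, with none at 0 in all samples. Of the 2-cell-like markers, 5 of 6 were tested and 0 passed, with a sum of 8.89 to 9.76 FPKM in untreated and 9.06 to 10.8 in tamoxifen samples. Of the 10 ESC markers 0 passed, with a median log2 fold change of 0.17. Nanog was the 1 ESC marker with all 3 tamoxifen samples above the untreated ones, beside 3.09% of all genes. It had 188, 104 and 153 FPKM in untreated replicates 1, 2 and 3. In tamoxifen replicates 1, 2 and 3 it had 203, 194 and 205. Its log2 fold change was 0.48 (limma adjusted p = 0.0792 with the block), and it passed in 1 of 7 fits with the block. Acta2 of the feeder list also passed in 1 of 7.

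The genes of known repressors of the germline programme were measured in the same samples. For PRC1.6, 14 of 14 subunit genes were tested and 0 passed, with a median log2 fold change of 0.02 and a range from −0.20 to 0.33. Its most abundant transcripts were Cbx3 at 101 ± 29 and 126.5 ± 32.0 FPKM, Hdac2 at 57.3 ± 16.7 and 69.5 ± 17.3, and Wdr5 at 59.1 ± 11.1 and 65.2 ± 9.2 (SD, n = 3 each). For DNA and H3K9 methylation, 1 of 10 genes rose with the block, Trim28, the corepressor of zinc finger proteins, from 384 ± 72 to 513 ± 32 FPKM (limma adjusted p = 0.0477), beside 4.33% of all genes, and 0 of 10 passed without it (0.999 for Trim28). Trim28 passed in 2 of 7 fits with the block, its call being lost without replicate 2 (0.248), without replicate 3 (0.0812), without the filter (0.12), after quantile normalization (0.102) and in TPM without loci under 300 bp (0.083). Dnmt3l and Uhrf1, cofactors of DNA methylation and the next most abundant of that list, had log2 fold changes of 0.07 and 0.02 and did not pass. Of the 10 genes, 7 had a positive and 3 a negative log2 fold change. The lowest was that of Dnmt3a, at −0.56 (interval 0.54- to 0.86-fold and limma adjusted p = 0.0505 with the block). Dnmt3a was lower after tamoxifen in 3 of 3 replicate numbers, although its groups overlapped, and it passed in 1 of 7 fits with the block.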

How the data were processed

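RNA from the 6 RNA-seq samples of the series was analysed; its ChIP-seq samples were not analysed here. Per the study's methods the authors aligned paired-end 51-bp reads to mm9 with TopHat2 (0.5) and computed values on refGene models with Cuffdiff (2.1.1). The deposited tables hold FPKM per gene row with a confidence interval and a status, and no read counts.

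Rows were summed by gene name, 6 names with a failed quantification were left out, and the 12997 genes with at least 0.5 FPKM in at least 3 of 6 samples were compared on log2(FPKM + 0.1), a scale that understates changes of low genes, with limma 3.58.1 in R 4.3.3 (mean-variance trend, Benjamini-Hochberg adjustment over all genes, threshold 0.05). The main comparison had no replicate block. Deviations from the group means correlated at 0.544, 0.605 and 0.506 across genes between samples of the same replicate number. Between numbers they correlated at −0.379 to −0.105, but subtracting the group mean forces such values to balance the positive ones. They add no separate support for pairing. From the correlations within numbers, the numbers from the labels were taken to pair the samples. The fit with the block is given beside the main comparison.

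Relative depth, read from single-fragment steps in low genes, was 0.654 to 0.954 of untreated replicate 1 in the other 5 samples, and 11521 to 11920 genes per sample had at least 1 FPKM. Total depth is unknown. Loci under 300 bp took 23.9% to 67.7% of the summed FPKM. The study calls the replicates biological triplicates.

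The members and lists were chosen with earlier results of these data known. Named genes are all members and somatic relatives, list genes past the threshold with or without the block, and the 3 most abundant of each germline and repressor list. Dnmt3a, Meiob, Nanog and Acta2, which are on the lists, were added to the named genes after the data were seen. Motifs were searched on both strands in RefSeq promoters with Python 3.11.15. Alternatives were other pseudocounts (1 and 0.01), scaling to TPM, quantile normalization, filters, no trend, leaving out replicates and, added after the data were seen, TPM without loci under 300 bp.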

Additional observations from a re-analysis of the deposited data

How the results depend on the processing

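Depth is known only in relative terms and no read counts were given. The error of a single value is known only through its deposited confidence interval, which the fits did not use, and the calls rest on 3 pairs of samples. Without the block, genes higher and lower numbered 3 and 1 and members 0 and 0. A pseudocount of 1 gave 2 and 0 genes, and at least 1 FPKM in all 6 samples 0 and 0, with 8 members tested (Slc25a31 and Taf7l dropped out).

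The replicate block gave 563 and 787 genes, with 2 members and 6 other germline genes higher. With quantile normalization added it gave 604 and 595 genes, 3 members and 6 others higher; without the filter 167 and 241, 1 and 5; and with TPM scaling without loci under 300 bp 310 and 919, 2 and 5, so the split between higher and lower genes moved with the scaling. The cause was not tested. The 5 other germline genes without the filter did not include Pld6 and Smc1b. They included Meiob of the meiotic list, which was too low to pass the filter, at 0.124 ± 0.026 and 0.647 ± 0.223 FPKM in untreated and tamoxifen samples. Meiob had a log2 fold change of 1.70 in that fit (limma adjusted p = 0.0397 with the block).

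Over the settings that leave out a replicate, with and without the block, genes higher ranged from 2 to 744 and genes lower from 0 to 1011, members higher from 0 to 2 and lower from 0 to 1 (Taf7l), and other germline genes higher from 0 to 7 and lower from 0 to 1. The fewest calls with the block came without replicate 2, at 36 genes higher and 43 lower, against 359 and 478 without replicate 3.

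Dazl, Hormad1, Mael and Sycp3 kept a positive and Taf7l and Slc25a31 a negative sign in every setting run. Ddx4 turned positive in TPM (0.0458) and after quantile normalization (0.0115, with and without the block), was 0.0151 with the block without replicate 3, and ranged from −0.222 to 0.183 when single samples were left out. Tdrkh was −0.0115 in TPM without loci under 300 bp, with and without the block, −0.0269 with the block without replicate 1, and −0.0473 to 0.184 when single samples were left out. Leaving out single samples also gave −0.0626 to 0.565 for Stk31 and −0.0561 to 0.471 for Stag3. The median over all genes was 0.08 in TPM and −0.11 in TPM without loci under 300 bp.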
